A study of Mus musculus with 6 samples.

Results

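The 33 genes described here encode proteins that license, start and carry out DNA replication, supply its nucleotides, rebuild chromatin behind the fork or control the step into S phase. They were taken by symbol from the array annotation, 1 probeset per gene, and all 33 were found among the 19938 genes measured. They were set out in 6 sub-functions: 8 licensing genes, 4 genes of helicase activation, 8 of synthesis at the fork, 5 of nucleotide supply, 4 of chromatin at the fork and 4 of G1/S control. The samples were bone marrow cells of young adult wild-type FVB/nJ mice, sorted as Lin-Kit+Sca-1+, a fraction that holds haematopoietic stem cells and early progenitors. One set of cells carried a lentivirus with mouse HLX, a homeobox transcription factor, followed by an internal ribosome entry site and GFP (3 arrays, HLX replicates 1 to 3), and the control cells carried the same kind of vector without HLX (3 arrays, control replicates 1 to 3). Cells of both groups were cultured for 2 days with serum, polybrene, mouse SCF, IL-3 and IL-6 and then sorted for GFP, so the controls too had been transduced, stimulated with cytokines and sorted again. The labels do not say whether replicates came from separate mice or cultures, so the p-values rest on sample-to-sample spread that may be technical in part.

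In late mitosis and G1, CDC6 and CDT1 load the MCM2 to MCM7 hexamer onto origins, which licenses them. At the start of S phase CDC45 and the GINS complex join the hexamer to make the active helicase, and polymerases, the sliding clamp PCNA and its loader RFC assemble around it. Transcription of many of these genes peaks at the G1/S boundary under E2F factors, which cyclin E and its kinase release from RB proteins. In stem cells, which are mostly quiescent in marrow, this programme is switched on when cytokines bring the cells into cycle.

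Promoters are shown first because a binding motif for E2F is a feature that some of these genes share. The rule that took the genes did not use the motif. Many of them are transcribed under E2F, however, so their choice is not independent of E2F. In the RefSeq promoter table of GRCm38.p6, which gives 250 bases before and 50 after each start, 28 of the 33 genes had an entry. An E2F-type motif (TTTCCCGC, TTTCGCGC, TTTGCCGC or TTTGGCGC, either strand) occurred in 10 of these 28 genes (35.7%), against 543 of 15614 genes that were measured on the array and had an entry (3.48%). Counted by promoter, 10 of 32 held it (31.2%), against 744 of 32851 in the whole table (2.26%). Other genes of the pathway, described further below, held it too. It occurred in 5 of 12 genes of origin recognition and firing with an entry (41.7%) and 6 of 18 other fork components (33.3%). Of other G1/S regulators 6 of 13 held it (46.2%), and of other chromatin genes 2 of 7 (28.6%). In other nucleotide metabolism it was 1 of 24 (4.17%). The sub-functions of the 33 genes differed in how often the motif occurred. It was found in 6 of 7 licensing genes with an entry (Mcm3, Mcm5, Mcm6, Mcm7, Cdc6 and Cdt1, with Mcm2 the exception), 2 of 7 fork genes (Pola1 and Rfc3), 1 of 4 chromatin genes (Uhrf1), 1 of 3 G1/S genes (E2f2) and in 0 of 2 helicase and 0 of 5 nucleotide supply genes. The CCAAT box, which NF-Y binds, was in 17 of 28 genes (60.7%), against 41.7% of the measured genes (CCAAT or its reverse ATTGG). A match of letters is a description of the sequence, and no binding was measured. The windows below hold the motif in capitals and belong to the 4 genes with a match that had the smallest p between vectors. Mcm5 carries 2 motifs on opposite strands that overlap by 4 bases, Cdc6 has its motif on the opposite strand, and the E2f2 motif lies past the start.

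Mcm5: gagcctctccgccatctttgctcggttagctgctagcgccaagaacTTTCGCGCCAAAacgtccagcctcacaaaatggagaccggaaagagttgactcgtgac
Cdc6: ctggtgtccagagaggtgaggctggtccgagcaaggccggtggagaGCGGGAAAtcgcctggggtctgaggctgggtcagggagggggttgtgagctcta
Uhrf1: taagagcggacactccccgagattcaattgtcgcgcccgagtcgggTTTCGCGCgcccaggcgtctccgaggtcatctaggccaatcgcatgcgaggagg
E2f2: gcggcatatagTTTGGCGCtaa

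All 4 are on the plus strand. The Mcm5 window is chr8:75109310-75109413 (bases -199 to -96 from the start), that of Cdc6 chr11:98907967-98908066 (bases -184 to -85), that of Uhrf1 chr17:56304082-56304181 (bases -231 to -132 from the one of its 2 listed starts whose promoter holds the motif) and that of E2f2 chr4:136172302-136172323 (bases 29 to 50).

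Over all genes the arrays were broadly alike. Median log2 levels over all probesets ran from 6.318 to 6.404, and pairwise correlations over 19938 genes from 0.980 to 0.987. These values do not show that the arrays were alike at the scale of the small differences described below. Hlx had log2 levels of 10.75, 9.74 and 10.28 in HLX arrays, against 6.99, 7.29 and 7.62 in control arrays, all HLX arrays above all control arrays, although limma did not call it (adjusted p = 0.0782). Kit, a marker used in the sort, averaged 9.50 in HLX arrays and 9.41 in control arrays. Cd34, which was not used in it, averaged 11.04 in HLX arrays and 11.21 in control arrays. Levels of different probesets cannot be set against each other, so these values do not show which cell types were present. Of 8 measured stem and progenitor markers 7 had a lower mean with HLX, Flt3 (8.52 in HLX arrays, 9.20 in control arrays) and Mecom (6.52 and 7.34) without overlap. Of 10 mature granulocyte and monocyte markers 7 had a higher mean with HLX. Lyz2 (7.89 in HLX arrays, 7.19 in control arrays), Itgam (6.96 and 6.07) and Csf1r (7.74 and 6.37) did so without overlap. Csf1r was at 6.49, 7.80 and 8.92 in HLX arrays and 6.28, 6.48 and 6.37 in control arrays. Its HLX replicate 1 thus barely cleared control replicate 2. Ly6g (4.76 in HLX arrays, 4.91 in control arrays), Ltf (5.03 and 5.12) and Camp (5.81 and 5.99) were lower with HLX without overlap. Their means lay below the median level of all probesets, as did that of Itgam in control arrays. Limma called 0 of these markers (smallest adjusted p = 0.824, for Lyz2), and 2 of the 8 and 3 of the 10 had an unadjusted p under 0.05, against 4.8% of all genes. Over all genes the groups did not overlap for 4.34% with HLX higher and 4.85% with HLX lower. Ly6a, the gene of Sca-1, had no probeset with 1 symbol and was not analysed here.

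Between vectors the replication genes differed little. Limma called 0 of 33 at an adjusted p under 0.05, where it also called 0 of all 19938 genes (0%). At an unadjusted p under 0.05 there were again 0 of 33, against 4.8% of all genes, 2.44% higher and 2.36% lower. The difference (HLX minus control, log2 scale throughout) was above 0 in 21 of 33 genes (63.6%), against 47.5% of all genes and 51.4% of the 11042 genes brighter than the median probeset, a group that holds 32 of the 33. Tk1 and Slbp are counted as below 0 there, although their dimmer probesets were above 0. The median difference of the 33 genes was 0.040, against -0.0078 for all genes. The median size of a difference, sign aside, was 0.066 for the 33 genes and 0.090 for all genes. For 23 of the 33 genes the difference was smaller than the pooled SD between replicates. The 95% intervals from limma lay within a 2-fold change either way for all 33 and within 1.5-fold for 25. The count above 0 was 17 without control replicate 2 and 25 without control replicate 1, and the median was 0.0076 without control replicate 2, 0.11 without HLX replicate 3 and between these in the other 4 fits that each left out 1 array. It was 0.0068 when quantile normalization was repeated on the deposited values, with 18 of 33 above 0.

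**Figure D1:**
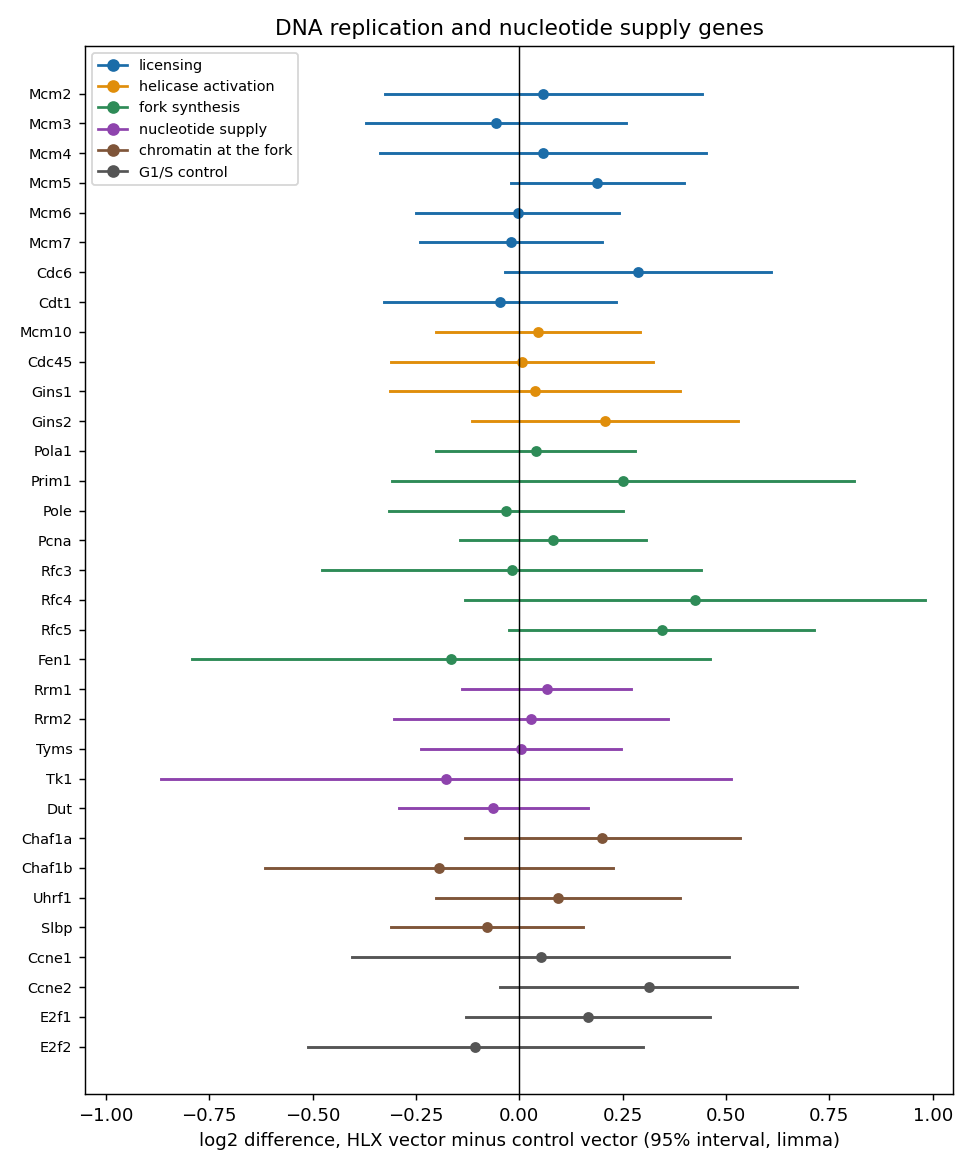
Log2 difference between HLX vector and control vector (x axis) of each of the 33 genes (y axis), coloured by sub-function. Points are differences and lines 95% intervals from limma (n = 3 arrays per group), and every interval includes 0, with the values running from -0.19 for Chaf1b to 0.42 for Rfc4.

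Licensing genes were split, 4 above 0 and 4 below, with a median difference of 0.027, which was -0.031 without control replicate 2. Mcm5, a subunit of the helicase ring, had log2 levels of 9.40, 9.39 and 9.48 in HLX arrays and 9.29, 9.18 and 9.23 in control arrays. All HLX arrays lay above all control arrays, by a margin of 0.098, and the difference was 0.19 ± 0.089 (SE, n = 3 per group, 1.14-fold, unadjusted p = 0.0701, adjusted p from limma 0.9999). Of the 33 genes, 2 (Mcm5 and Rfc5) had groups that did not overlap with HLX higher and 0 with HLX lower, against 4.34% and 4.85% of all genes (9.19% either way).

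Cdc6, the ATPase that loads the ring together with CDT1, had levels of 8.67, 8.42 and 8.34 in HLX arrays and 8.36, 7.99 and 8.21 in control arrays. Its groups overlapped by 0.025 only, between HLX replicate 3 and control replicate 1, and the difference was 0.29 ± 0.14 (SE, unadjusted p = 0.0722). Cdt1, its partner, had 6.92, 6.77 and 7.14 in HLX arrays and 7.01, 6.90 and 7.06 in control arrays. Its highest and its lowest level were both in HLX arrays, and the difference was -0.046 ± 0.12 (SE).

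For the other ring subunits the groups overlapped, and differences between subunits were not tested. Mcm2 was at 9.60, 9.28 and 9.75 in HLX arrays and 9.58, 9.23 and 9.64 in control arrays, so that replicate 2 was the lowest array with either vector. Mcm3 was at 9.98, 9.94 and 9.69 in HLX arrays and 10.11, 9.73 and 9.93 in control arrays, and Mcm4 at 9.55, 9.59 and 9.07 in HLX arrays and 9.56, 9.25 and 9.23 in control arrays. For both, HLX replicate 3 was the lowest array of all 6. The differences were 0.058 ± 0.16 for Mcm2, -0.055 ± 0.13 for Mcm3 and 0.057 ± 0.17 for Mcm4 (SE). Mcm6 and Mcm7 varied least over the 6 arrays among the ring genes, with ranges of 0.23 and 0.18. Mcm6 averaged 10.62 ± 0.091 in HLX arrays and 10.63 ± 0.12 in control arrays (SD, n = 3), and Mcm7 8.96 ± 0.050 in HLX arrays and 8.98 ± 0.090 in control arrays. For Mcm7 the 95% interval of the difference was -0.24 to 0.20.

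All 4 genes of helicase activation were above 0, by little, with a median of 0.042, which was -0.0075 without HLX replicate 1. Gins2, a GINS subunit, had 9.91, 9.95 and 9.63 in HLX arrays and 9.80, 9.65 and 9.42 in control arrays. HLX replicate 3 lay below control replicates 1 and 2, and the difference was 0.21 ± 0.14 (SE, unadjusted p = 0.174). Gins1, of the same complex, had 9.42, 9.28 and 9.06 in HLX arrays and 9.44, 8.99 and 9.21 in control arrays, with a difference of 0.038 ± 0.15. Its highest and its lowest array both carried the control vector. Cdc45, which bridges GINS and the ring, was at 9.08, 8.94 and 8.62 in HLX arrays and 8.78, 8.90 and 8.93 in control arrays. Both extremes fell within the HLX group, and the difference was 0.0070 ± 0.14. Mcm10, which helps to fire the assembled helicase, averaged 8.77 ± 0.097 in HLX arrays and 8.73 ± 0.11 in control arrays (SD, n = 3).

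The fork genes held both the largest difference and the widest spread. Their differences were above 0 in 5 of 8, the median difference was 0.060, and the median pooled SD was 0.26, against 0.18 for all 33 genes and 0.16 for all genes measured. Rfc5, a subunit of the clamp loader, had 9.45, 9.32 and 9.29 in HLX arrays and 9.11, 8.67 and 9.25 in control arrays. The groups were 0.049 apart, with control replicate 2 well below the rest, and the difference was 0.34 ± 0.16 (SE, n = 3 per group, 1.27-fold, unadjusted p = 0.0634, adjusted p from limma 0.9999). Without control replicate 2 the difference was 0.17.

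Rfc4, another loader subunit, had 9.20, 8.96 and 8.25 in HLX arrays and 8.57, 8.23 and 8.33 in control arrays. HLX replicates 1 and 2 lay above every control array, and HLX replicate 3 among the control arrays. Its difference of 0.42 ± 0.24 (SE, 1.34-fold, unadjusted p = 0.115) became 0.70 ± 0.14 without HLX replicate 3 (adjusted p from limma 0.781) and 0.23 ± 0.22 without HLX replicate 1. Rfc3, the third loader subunit among these genes, was at 9.82, 9.67 and 9.18 in HLX arrays and 9.35, 9.55 and 9.82 in control arrays. Its highest level in either group was the same to 2 decimals, and the difference was -0.019 ± 0.20. Differences between the loader subunits were not tested.

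Pcna, the clamp itself, was steady, at 12.25, 12.42 and 12.26 in HLX arrays and 12.29, 12.20 and 12.19 in control arrays, with a difference of 0.081 ± 0.096. Its other probeset gave 0.074 ± 0.094. The levels of the 2 probesets were the same in control replicates 2 and 3 (12.1954 and 12.1926), so the second may not be a separate measurement. Whether they share sequence was not tested. Prim1, the primase subunit that makes the RNA primer, had 10.13, 10.47 and 9.61 in HLX arrays and 9.90, 9.49 and 10.07 in control arrays. The groups overlapped, and the difference of 0.25 ± 0.24 was 0.052 without HLX replicate 2, 0.086 without control replicate 2 and 0.48 without HLX replicate 3. Pola1, the catalytic subunit of the polymerase that extends the primer, averaged 9.67 ± 0.12 in HLX arrays and 9.63 ± 0.073 in control arrays, and Pole, that of the leading-strand polymerase, 8.56 ± 0.15 in HLX arrays and 8.60 ± 0.14 in control arrays (SD, n = 3). Fen1, the flap nuclease that trims Okazaki fragments, had the widest range of the 33 genes, 1.08, at 8.66, 8.20 and 8.67 in HLX arrays and 9.28, 8.46 and 8.28 in control arrays. Control replicate 1 alone stood high, and without it the difference of -0.17 ± 0.27 was 0.14.

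**Figure D2:**
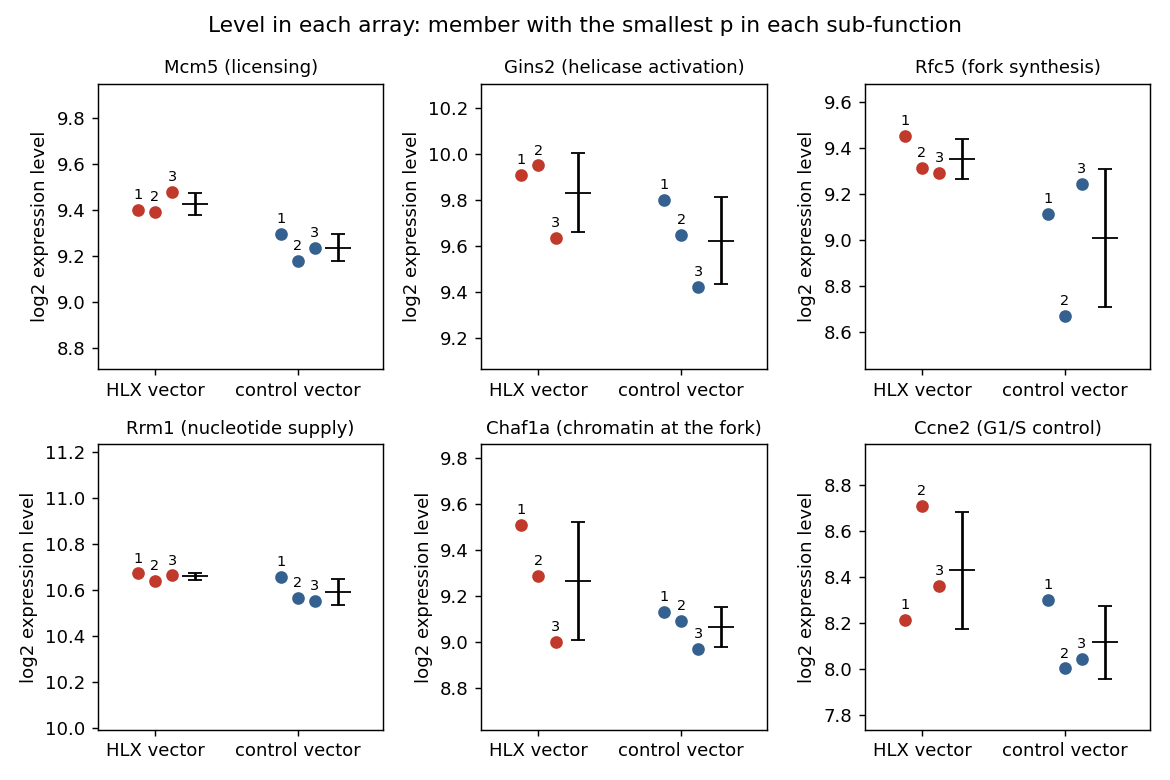
Log2 expression level (y axis) in each array of the gene with the smallest p of each sub-function, HLX vector in red on the left and control vector in blue on the right. Numbers are replicates, and bars show mean and SD (n = 3). All panels span the same number of log2 units, and the groups do not overlap for Mcm5 and Rfc5, while those of Rrm1 lie closest together.

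Nucleotide supply genes showed no common direction, with 3 of 5 above 0 and a median difference of 0.0035. Both values take Tk1 as below 0 from the brighter of its 2 probesets, while the dimmer was above 0 (0.28). Rrm1, the large subunit of ribonucleotide reductase, which makes deoxyribonucleotides, had the narrowest range of the 33 genes, 0.12. It was at 10.67, 10.64 and 10.66 in HLX arrays and 10.66, 10.57 and 10.55 in control arrays, with a difference of 0.066 ± 0.087 (SE, unadjusted p = 0.470) and a 95% interval of -0.14 to 0.27. Rrm2, the small subunit, whose level limits the enzyme in S phase, was at 10.12, 9.85 and 9.74 in HLX arrays and 10.09, 9.75 and 9.80 in control arrays. Replicate 1 was the highest array with either vector, and the difference was 0.028 ± 0.14. Tyms, which makes thymidylate, averaged 9.07 ± 0.077 in HLX arrays and 9.07 ± 0.12 in control arrays, and Dut, which removes dUTP, 8.92 ± 0.10 in HLX arrays and 8.98 ± 0.054 in control arrays (SD, n = 3).

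Tk1, the thymidine kinase of the salvage pathway, could not be given a direction. The brighter of its 2 probesets had 9.31, 10.33 and 9.65 in HLX arrays and 10.02, 9.50 and 10.30 in control arrays, with a difference of -0.18 ± 0.29. The dimmer had 8.36, 8.72 and 8.25 in HLX arrays and 8.23, 8.47 and 7.79 in control arrays, with a difference of 0.28 ± 0.20 (SE). The 2 probesets thus differed in sign, and control replicate 3 was among the highest arrays on the brighter and the lowest on the dimmer. Whether either shares sequence with a copy of the gene was not tested.

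At the fork, chromatin genes were split 2 and 2, with a median of 0.0076. Chaf1a, the large subunit of the CAF-1 histone chaperone, had 9.51, 9.29 and 9.001 in HLX arrays and 9.13, 9.09 and 8.97 in control arrays. HLX replicates 1 and 2 were above all controls, replicate 3 was not, and the difference was 0.20 ± 0.14 (SE, unadjusted p = 0.197). It was 0.079 without HLX replicate 1 and 0.33 without HLX replicate 3. Chaf1b, its partner in CAF-1, had 7.90, 7.90 and 7.57 in HLX arrays and 8.34, 7.72 and 7.89 in control arrays. It gave the lowest difference of the 33 genes, -0.19 ± 0.18, and without control replicate 1 it was -0.015. Uhrf1, which guides maintenance methylation of new DNA, averaged 10.46 ± 0.074 in HLX arrays and 10.36 ± 0.21 in control arrays, and Slbp, which binds the stem-loop of histone messages, 9.33 ± 0.074 in HLX arrays and 9.41 ± 0.10 in control arrays (SD, n = 3). A dimmer probeset of Slbp gave a difference of 0.014, against -0.078 for the brighter.

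Of the G1/S regulators 3 of 4 were above 0, with a median of 0.11. Ccne2, the gene of cyclin E2, had 8.22, 8.71 and 8.36 in HLX arrays and 8.30, 8.00 and 8.05 in control arrays. HLX replicate 1 was the only one to lie below a control array, and the difference was 0.31 ± 0.15 (SE, 1.24-fold, unadjusted p = 0.0786, adjusted p from limma 0.9999). Without HLX replicate 2 it was 0.17. Ccne1, of cyclin E1, had 7.54, 8.19 and 7.55 in HLX arrays and 7.63, 7.58 and 7.91 in control arrays. For both cyclins HLX replicate 2 was the highest array, and for Ccne1 the difference was 0.051 ± 0.19. E2f1, an activator of S phase genes, had 7.73, 7.47 and 7.69 in HLX arrays and 7.27, 7.53 and 7.59 in control arrays, with a difference of 0.17 ± 0.13. E2f2, a related activator, was at 6.10, 6.12 and 6.68 in HLX arrays and 6.57, 6.36 and 6.29 in control arrays. Its highest and lowest levels were both in HLX arrays, and the difference was -0.11 ± 0.17. The 10 genes with an E2F-type motif include members on both sides of 0, Mcm5 at 0.19 and Cdc6 at 0.29 against Cdt1 at -0.046 and Mcm3 at -0.055.

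Arrays of the same vector differed more than the vectors did. The level of each gene was set against its own mean over the 6 arrays, and the median of these deviations was taken over the 33 genes. It was 0.072, 0.064 and -0.066 in HLX replicates 1, 2 and 3, against 0.064, -0.087 and -0.059 in control replicates 1, 2 and 3. HLX replicates 1 and 2 and control replicate 1 were therefore above the mean and the other 3 arrays below it. In the same order, 24, 24 and 12 of the 33 genes were above their own mean in HLX arrays, and 23, 4 and 14 in control arrays. Control replicate 2 held the lowest level of the 6 arrays for 10 genes and HLX replicate 3 for 9, while control replicate 1 held the highest for 9 and HLX replicates 1 and 2 for 8 each.

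**Figure D3:**
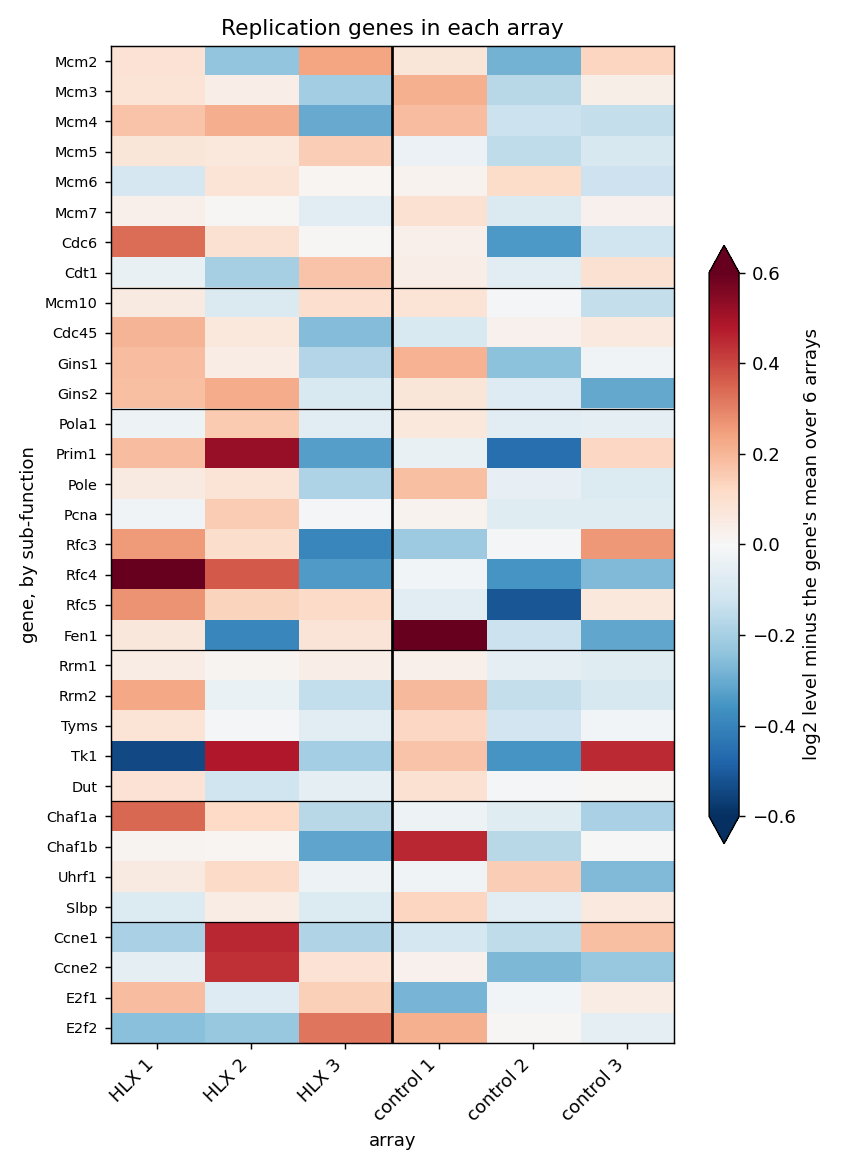
Deviation of each of the 33 genes (rows, by sub-function) from its own mean over 6 arrays, in each array (columns, HLX arrays left of the line), in log2 units. Colours are cut at 0.6 either way, red is above the mean and blue below, and in control replicate 2 only 4 of 33 rows are above the mean.

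The sub-functions shared this order of arrays in part. Fork genes had median deviations of 0.13, 0.14 and -0.13 in HLX replicates 1 to 3, against 0.0026, -0.10 and -0.066 in control replicates 1 to 3, and in control replicate 2 all 8 were below their mean. Nucleotide supply genes had 0.082, -0.0068 and -0.070 in HLX arrays, against 0.13, -0.11 and -0.017 in control arrays, with all 5 above their mean in control replicate 1 and all 5 below it in control replicate 2. Licensing genes had 0.078, 0.052 and 0.010 in HLX arrays, against 0.056, -0.14 and -0.034 in control arrays. The helicase genes had 0.18, 0.055 and -0.13 in HLX arrays, against 0.078, -0.042 and -0.084 in control arrays, and chromatin genes 0.035, 0.081 and -0.12, against 0.054, -0.070 and -0.097. G1/S genes went another way, at -0.13, 0.18 and 0.12 in HLX arrays, against -0.039, -0.084 and -0.0078 in control arrays.

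Other measures moved with these arrays. Over all genes the median deviation had the opposite sign in each array, at -0.0096, -0.045 and 0.034 in HLX arrays, against -0.018, 0.0082 and 0.017 in control arrays. Over the 11042 genes brighter than the median probeset it was 0.0068, -0.0091 and 0.011 in HLX arrays, against -0.0032, -0.015 and 0.012 in control arrays, with the same sign as the replication genes in HLX replicate 1 and control replicate 2 and the opposite sign in the other arrays. The SD of log2 levels over all genes was 1.81, 1.83 and 1.76 in HLX arrays, against 1.81, 1.76 and 1.78 in control arrays, so it was widest in the 3 arrays where the replication genes were high. After repeated quantile normalization the median deviations of the 33 genes were 0.030, 0.017 and -0.018 in HLX arrays, against 0.047, -0.077 and -0.024 in control arrays, and after cyclic loess 0.036, 0.029 and -0.025, against 0.044, -0.067 and -0.050. The sign in each array stayed as it was and the sizes were smaller. Both settings were chosen for this measure after the data were seen.

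Mitosis, stem cell and mature myeloid markers had other orders of arrays. Erythroid and lymphoid markers had the opposite sign to the replication genes in each of the 6 arrays, as all genes did. Genes brighter than the median probeset did not have the opposite sign throughout. Of 19 mitosis genes, which act after replication, 15 were above 0 between vectors, with a median difference of 0.066, and their median deviations were -0.00077, 0.16 and -0.00049 in HLX arrays, against -0.12, 0.030 and -0.041 in control arrays. Control replicate 1, where the replication genes were high, was thus the lowest array for mitosis genes. The 8 measured stem and progenitor markers had 0.038, -0.12 and -0.23 in HLX arrays, against 0.22, 0.12 and 0.060 in control arrays. For 10 mature granulocyte and monocyte markers the values were -0.063, -0.025 and 0.16 in HLX arrays, against -0.14, -0.016 and -0.081 in control arrays, so HLX replicate 3, with low replication genes, had the highest level of these markers and the lowest of stem markers. The 8 erythroid markers had -0.043, -0.089 and 0.063 in HLX arrays, against -0.0096, 0.014 and 0.070 in control arrays, and 9 lymphoid markers -0.12, -0.12 and 0.078, against -0.032, 0.014 and 0.049. The lymphoid list was dim, with a mean level from 5.13 to 5.30 over the 6 arrays, below the median probeset (6.37). The mean level of the erythroid list lay above it, from 6.87 to 7.03, with Tfrc the brightest at 10.10 in HLX arrays. Erythroid markers other than Tfrc averaged from 6.12 to 6.95 in HLX arrays. Of these, Klf1 and Tspo2 lay below the median probeset with either vector. The part of these lists in the replication genes' levels was not tested, and in sorted cells fewer cycling cells and less message per cell cannot be told apart.

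**Figure D4:**
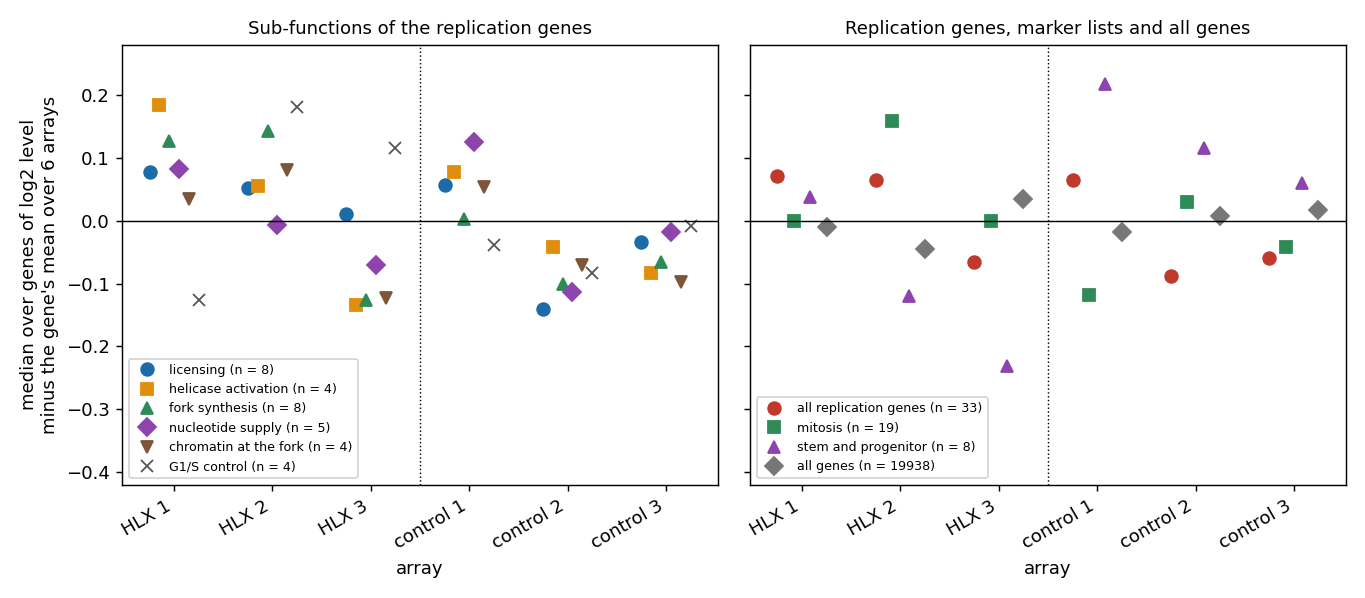
Median over the genes of a list of the log2 level minus the gene's own mean over 6 arrays (y axis), in each array (x axis, HLX arrays left of the dotted line). The left panel shows the 6 sub-functions and the right panel all replication genes with mitosis genes, stem and progenitor markers and all genes, and replication genes are above 0 in HLX replicates 1 and 2 and control replicate 1.

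The remaining genes of the pathway, 86 measured of 88 listed, were above 0 in 60 of 86 (69.8%), with a median difference of 0.10. How far this count depends on single arrays or on normalization was not tested. At an adjusted p under 0.05 limma called 0, and at an unadjusted p under 0.05 there were 8 higher and 3 lower, against 2.44% and 2.36% of all genes. Groups did not overlap in 10 with HLX higher and 7 with HLX lower, against 4.34% and 4.85%. Of 15 genes of origin recognition and firing, 14 were above 0, with a median of 0.12. Their median deviations were 0.12, 0.12 and -0.0074 in HLX arrays, against 0.0071, -0.16 and -0.16 in control arrays. HLX replicate 3 thus lay below control replicate 1, and control replicate 2 held the lowest level for 8 of the 15. Gmnn, the gene of geminin, which holds back CDT1, had the smallest p there, at 8.94, 8.89 and 8.95 in HLX arrays and 8.49, 8.61 and 8.76 in control arrays. All HLX arrays lay above all control arrays, with a difference of 0.31 ± 0.10 (SE, unadjusted p = 0.0187, adjusted p from limma 0.932).

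Of 21 other fork components 15 were above 0, with a median of 0.15. For this list too HLX replicate 3 (median deviation -0.012) lay below control replicate 1 (0.016). Rpa1, the large subunit of the single-strand binding protein, had 9.53, 9.34 and 9.26 in HLX arrays and 9.06, 8.84 and 8.96 in control arrays, without overlap, and a difference of 0.42 ± 0.11 (SE, unadjusted p = 0.00632, adjusted p from limma 0.901). Other nucleotide metabolism had 16 of 26 above 0 and a median of 0.047, and 6 of the 7 pathway genes that lay lower with HLX without overlap were in it. Rrm2b, a small subunit of ribonucleotide reductase that p53 induces and that also serves cells outside S phase, was at 8.05, 7.67 and 7.84 in HLX arrays and 8.55, 8.43 and 8.07 in control arrays. Every HLX array was below every control array, with a difference of -0.49 ± 0.16 (SE, unadjusted p = 0.0154, adjusted p from limma 0.932), while the S phase subunit Rrm2 was at 0.028. The difference between these 2 subunits was not tested.

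Among 7 other chromatin genes 4 were above 0, with a median of 0.00035. Asf1a, a histone chaperone, had the smallest p, with a difference of 0.21 ± 0.12 (SE, unadjusted p = 0.110). Of 17 other G1/S regulators 11 were above 0, with a median of 0.13. E2f6, a repressor of the E2F family, was at 8.20, 8.74 and 8.78 in HLX arrays and 8.05, 7.93 and 8.09 in control arrays. The groups did not overlap, and the difference was 0.55 ± 0.17 (SE, unadjusted p = 0.0113, adjusted p from limma 0.932).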

How the data were processed

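The authors deposited 1 log2 level for each probeset on each of the 6 arrays. Per the submitters' processing notes it was made with RMA in Affymetrix Power Tools, and the log2 unit follows from the range of values. RMA is meant to remove differences common to an array, but some remained in the deposited values. Median levels over all probesets ran from 6.318 to 6.404, and the SD of levels over all genes from 1.76 to 1.83. RMA also compresses weak signals, and a level cannot be compared between genes. Neither the software version nor the genome build of the probes is given in the sources used here. Of 35556 probesets 21789 had 1 symbol, 1621 several and 12146 were unlisted and so unnamed; 21698 gene identifiers matched RefSeq (GRCm38.p6) and 0 symbols changed. For 999 genes with several probesets the one with the highest mean over the 6 arrays was taken, which gave 19938 genes.

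HLX and control arrays were compared with limma 3.58.1 (lmFit, eBayes) in R 4.3.3, 2-sided, over all genes, with Benjamini-Hochberg adjustment and a threshold of 0.05 (4 residual and 3.32 prior degrees of freedom). The SE is limma's moderated SE. Precision is limited by 3 arrays per group. Names follow a rule: all 33 genes, with each array's value for those at an unadjusted p under 0.05, those without overlap and the smallest p of each sub-function; other genes given array by array were chosen after their values were seen. Of the remaining pathway lists the gene with the smallest p was named. Members, lists and tests were chosen with earlier results of these data known. Alternatives were a filter on dim genes, 3 normalizations, another variance prior, array weights, the mean of probesets, the replicate number as a block and leaving out each array. Deviations of same-numbered arrays correlated at 0.20, 0.0085 and 0.14 for replicates 1, 2 and 3. The best-correlated control array had the same number for HLX replicates 1 and 3, but not for HLX replicate 2. Whether the numbers pair the samples is thus not settled, and they were used as a block only among the alternatives.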

Additional observations from a re-analysis of the deposited data

How the results depend on the processing

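Of 33 genes, 15 kept the sign of their difference in every one of up to 14 alternatives, and 48 of 461 recomputed values had the other sign, all of genes that were not called. The dimmer probeset alone was not among these alternatives. Slbp, which is among the 15, had the other sign on its dimmer probeset (0.014 against -0.078). In 0 of the 461 was a gene called, with adjusted p from limma between 0.781 and 0.99996. The count of the 33 at an unadjusted p under 0.05, 0 in the deposited values, was 1 after centring the arrays on their medians (Mcm5), 2 with array weights (Cdc6 and Rfc4), 1 with the replicate block (Cdc6) and 0 to 3 when 1 array was left out. The 3 came without HLX replicate 3 (Rfc4 and Chaf1a higher, E2f2 lower). The replicate block changed no other call. The count of genes called over all 19938 was 1 with a trended and robust prior, under which Hlx passed (log2 difference 2.95, adjusted p = 0.0377, the lowest of its alternatives, which reach 0.638), and 0 in the others. Leaving out 1 array moved the median difference of licensing genes between -0.031 and 0.073, of helicase genes between -0.0075 and 0.14, of fork genes between 0.0074 and 0.14, of nucleotide supply genes between -0.052 and 0.067, of chromatin genes between -0.043 and 0.046 and of G1/S genes between 0.040 and 0.19. Values below 0 came without control replicate 2 or 3 for licensing, without HLX replicate 1 for helicase, without HLX replicate 1 or control replicate 2 or 3 for nucleotide supply, and without HLX replicate 2 or control replicate 3 for chromatin genes. Centring moved the median difference of all genes from -0.0078 to 0.018 and the count of the 33 above 0 from 21 to 24. E2f2 was removed by the filter on dim genes, so it has 13 values. Signal over background was not analysed here, and the number of arrays limits the precision.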
